A study of Mus musculus with 173 samples.

Results

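The heat shock and chaperone genes are 41 genes of protein folding, chosen by symbol and matched to the Ensembl identifiers of the count table, where all 41 were found among 38561 genes. They comprise 7 genes of the Hsp70 family, 3 Hsp110 exchange factors, 2 cytosolic Hsp90 genes, 4 chaperones of the endoplasmic reticulum, 3 mitochondrial chaperones, 7 small heat shock proteins, 7 cytosolic J proteins, 6 co-chaperones and 2 heat shock factors. They were measured by RNA-seq of bulk tissue in 11 tissues of 16 mice of the C57BL/6 strain at 6 months of age. The 8 Q175 mice were heterozygous for a knock-in huntingtin allele with a labelled CAG length of 175, a model of Huntington's disease in which the expanded repeat sits in the mouse gene itself. The 8 wild-type mice carried no such allele. The series text calls them littermates, while their labels place them in the housing of heterozygous Q20 mice and give them Q20 animal codes, so genotype, housing and colony cannot be told apart. Each genotype had 4 females and 4 males with 1 library per animal and tissue, apart from gonadal white adipose tissue (7 wild-type libraries) and skin (6 wild-type libraries). Library numbers do not mark the same animal across tissues, so animals are named here from the codes in their labels as males A to D and females E to H of each genotype.

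Molecular chaperones bind unfolded stretches of other proteins and help them fold, cross membranes or reach the proteasome. Hsp70 proteins work in cycles of ATP use that J proteins start and Hsp110 proteins reset, Hsp90 proteins finish the folding of kinases and hormone receptors, and small heat shock proteins hold unfolded clients without ATP. When unfolded protein builds up or temperature rises, the factor Hsf1 binds repeats of the unit nGAAn in promoters and switches on genes such as Hspa1a, Hspa1b, Hsph1, Dnajb1 and Hspb1. Chaperones have been studied in Huntington's disease because several of them keep expanded polyglutamine protein from clumping.

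The promoters of 5 members, chosen by hand, are shown first, and each holds a match of the search below. Members without a match, such as Dnajb1, Stip1, Bag3 and Chordc1, are not shown. Of the 41 members, 32 had a promoter in the RefSeq table of build GRCm38.p6. The 250 bases before the start were searched for 2 facing units, GAANNTTC or TTCNNGAA, each of which reads the same on both strands and may overlap the other. At least 1 match was found in 12 of these members (37.5%) and in 3932 of 27025 genes of the table (14.5%). A run of 3 units, GAANNTTCNNGAA or its reverse complement TTCNNGAANNTTC, was found in 3 members (9.38%), which were Hspd1, Hspe1 and Dnajb6, and in 139 genes of the table (0.514%). The windows lie at chr17:34972157-34972406 (Hspa1a, minus strand), chr17:34959239-34959488 (Hspa1b, minus strand), chr5:149636316-149636565 (Hsph1, minus strand), chr5:135887669-135887918 (Hspb1, plus strand) and chr1:55087898-55088147 (Hspe1, plus strand). They are written 5′ to 3′ with the matches in capitals.
Hspa1a: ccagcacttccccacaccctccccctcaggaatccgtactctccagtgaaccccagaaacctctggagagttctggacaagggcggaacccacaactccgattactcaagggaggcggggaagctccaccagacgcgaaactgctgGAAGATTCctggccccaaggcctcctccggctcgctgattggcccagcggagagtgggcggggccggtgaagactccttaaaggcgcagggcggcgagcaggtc
Hspa1b: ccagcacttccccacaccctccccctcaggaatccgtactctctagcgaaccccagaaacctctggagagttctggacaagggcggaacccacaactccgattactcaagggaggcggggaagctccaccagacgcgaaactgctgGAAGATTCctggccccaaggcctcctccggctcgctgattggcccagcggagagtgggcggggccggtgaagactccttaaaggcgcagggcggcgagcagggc
Hsph1: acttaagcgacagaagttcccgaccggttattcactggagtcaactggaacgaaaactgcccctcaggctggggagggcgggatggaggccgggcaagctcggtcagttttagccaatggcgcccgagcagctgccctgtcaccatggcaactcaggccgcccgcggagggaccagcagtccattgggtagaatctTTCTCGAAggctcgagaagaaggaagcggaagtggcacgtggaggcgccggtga
Hspb1: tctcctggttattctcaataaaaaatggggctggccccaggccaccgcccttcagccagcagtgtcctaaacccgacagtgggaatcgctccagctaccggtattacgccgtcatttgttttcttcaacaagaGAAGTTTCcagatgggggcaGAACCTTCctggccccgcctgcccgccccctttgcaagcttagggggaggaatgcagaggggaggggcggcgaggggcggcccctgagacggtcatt
Hspe1: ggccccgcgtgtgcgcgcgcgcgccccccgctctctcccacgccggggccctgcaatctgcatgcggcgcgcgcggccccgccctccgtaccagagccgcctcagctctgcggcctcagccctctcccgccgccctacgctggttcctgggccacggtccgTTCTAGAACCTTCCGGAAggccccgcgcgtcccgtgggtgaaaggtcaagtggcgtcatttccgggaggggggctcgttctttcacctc
The Hspa1a and Hspa1b windows were identical at 247 of 250 positions. The transcripts of this pair are also near copies, so the counting could split or swap their reads, and each value of either gene is uncertain to that degree. Hspe1 and Hspd1 lie head to head, and their windows share 215 bases on opposite strands. A match is a description of letters and not a measured binding site.

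Library totals ran from 27.98 M to 48.02 M estimated counts (median 35.2 M), and no pair of libraries was near-identical. Summed markers of the epidermis were 13490 to 27712 CPM (counts scaled to a common library total) in wild-type skin, and those of brown adipocytes 3801 to 6255 CPM in wild-type brown adipose tissue. In bulk tissue, fewer cells of a type and less RNA per cell cannot be told apart. In skin the library of wild-type female G stood apart, with 4886 CPM of Cryab, a small heat shock protein abundant in muscle and lens, while the other 13 libraries had 71.3 to 774 CPM.

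Across organs, 2 animals stood above the other 14 in most members. They were wild-type males A and C. For each gene the log2 CPM of a library was set against the median of its tissue and averaged over the 9 tissues that all 16 animals had, and 38 members passed the low-count filter in all 9. In 25 of these 38 members the 2 highest averages were those of males A and C, as in 395 of 12549 genes overall (3.15%). The pair was picked from the members' own values, so these counts describe it and test nothing. The median deviation of the members was +0.32 in male A and +0.28 in male C, while the other 14 animals lay between -0.13 and +0.08. Over all genes the medians of the 2 males were +0.01 and 0.00. At the other end, wild-type female G was the lowest animal in 14 members and wild-type male D in 10.

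The deviation differed between members, also within a role. Hspa1b, with Hspa1a the main inducible Hsp70, deviated by +2.55 in male C and +1.14 in male A on the log2 scale, and the next animal, wild-type male B, by +0.98. For Hspa1a the values were +2.09 in male C and +0.64 in male A, the latter below the +0.82 of male B. Hspb1 (Hsp27) deviated by +0.98 in male A and +0.88 in male C, and by at most +0.30 elsewhere. Hsph1, an inducible Hsp110, stood at +0.69 and +0.81 with the other animals at most +0.18. By the mean of both males these 4 genes were the most displaced of the members. The stress-responsive Hsp90 gene Hsp90aa1 stood at +0.64 and +0.59, and its steadier sister Hsp90ab1 at +0.35 and +0.32. Stip1, which links Hsp70 to Hsp90, stood at +0.42 and +0.43, and Bag3, an Hsp70 partner in selective autophagy, at +0.22 and +0.45. In the endoplasmic reticulum Hspa5 (BiP) stood at +0.39 and +0.43, and Hsp90b1 (Grp94) at +0.44 and +0.23. Other members barely moved in these males. Hspa2 deviated by -0.14 and +0.01, Hspa12a by -0.02 and +0.08, and the mitochondrial Hsp70 gene Hspa9 by +0.11 and +0.03. Hsf1, whose activity is set largely at the protein level, deviated by +0.06 and +0.14. The facing units were found for 7 of 20 members with both males on top and for 4 of 10 of the others. Only members with a promoter sequence were counted, with a match in any of their windows.

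**Figure D1:**
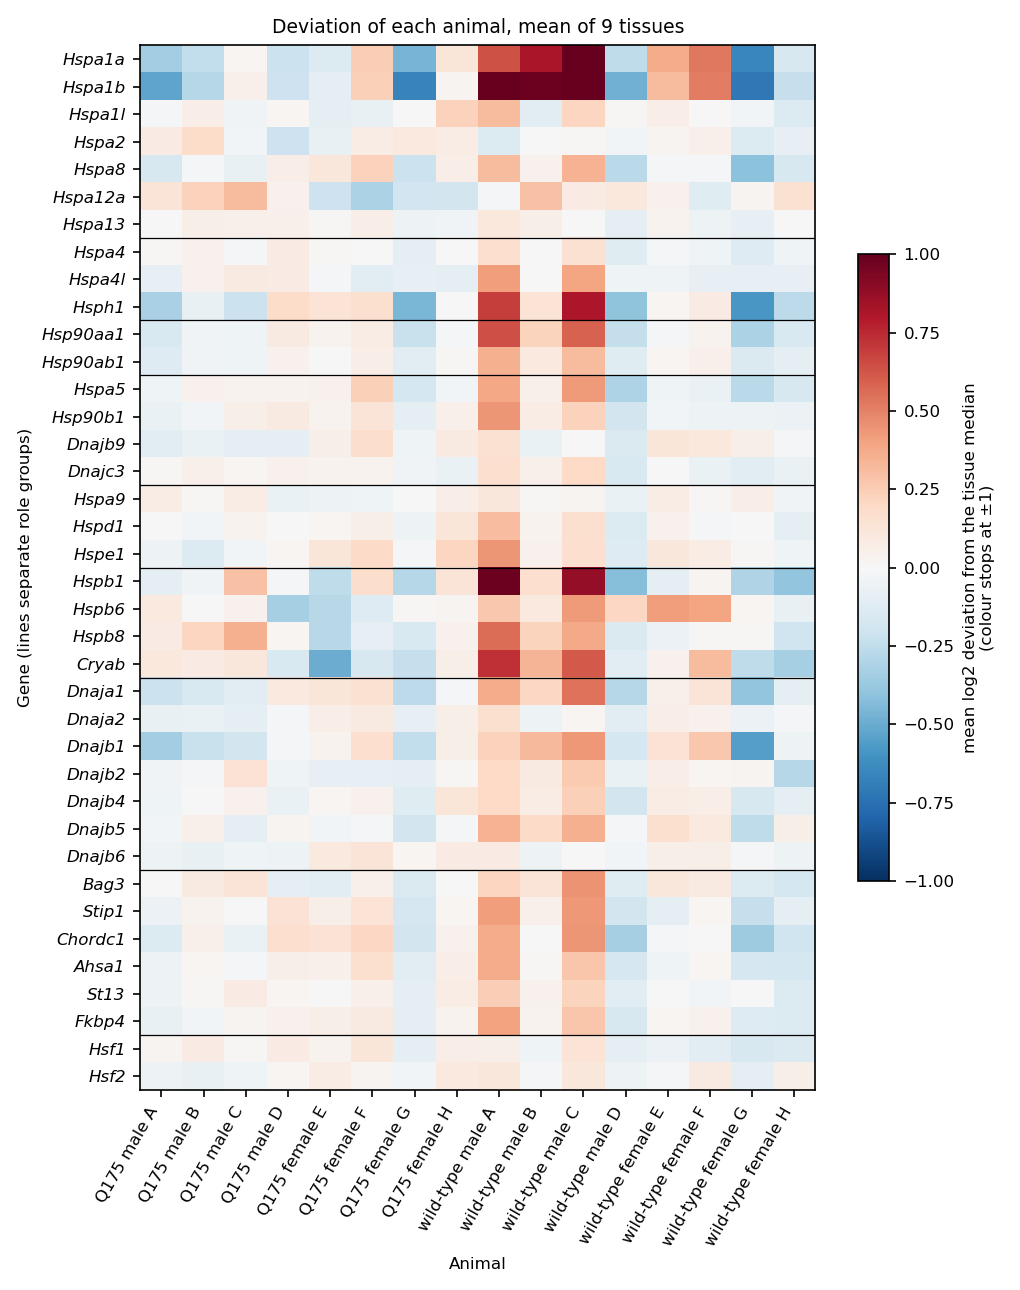
Mean log2 deviation of each animal from the median of its tissue over 9 tissues, for 38 heat shock and chaperone genes; columns are the 16 animals, rows are genes by role, and red is above the median. Wild-type males A and C hold the 2 highest values in 25 rows, and Hspa1b reaches +2.55 in male C.

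The 2 males were also read organ by organ. Male C was the highest library for Hspa1b in 8 of its 10 tissues, and for Hspa1a also in 8. Male A was highest for Hspa1b in 0 of its 11 tissues, though among the 2 highest in 7, and highest for Hspa1a in 1. In heart, Hspa1b was 23.7 CPM in male C and 0.591 to 3.28 CPM in the other 15 libraries. In gastrocnemius it was 50.9 CPM in male C against 1.23 to 5.05 CPM, and in corpus callosum 68.96 CPM against 2.06 to 21.1 CPM. Male C lay outside the range of every other library in these 3 tissues. Gonadal white adipose tissue was different, since the highest Hspa1b there, 27.1 CPM, was in Q175 male B. For Hsp90aa1, male A was among the 2 highest libraries in 11 of 11 tissues and male C in 9 of 10. In heart, Hsp90aa1 was 267 CPM in male A, 257 CPM in male C and at most 161 CPM in the other 14 libraries. By tissue, the number of tested members with both males on top ran from 2 of 40 in gonadal white adipose tissue (all genes 0.474%) to 20 of 39 in cerebellum (all genes 3.25%). In brown adipose tissue it was 17 of 40, with the highest share of all genes (5.72%). Summed muscle markers there were also highest in these 2 males, as given below. That tissue is among the 9 averaged ones, and the part of muscle content in the averages was not tested. Skin was not counted, because no skin library of male C was analysed here.

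**Figure D2:**
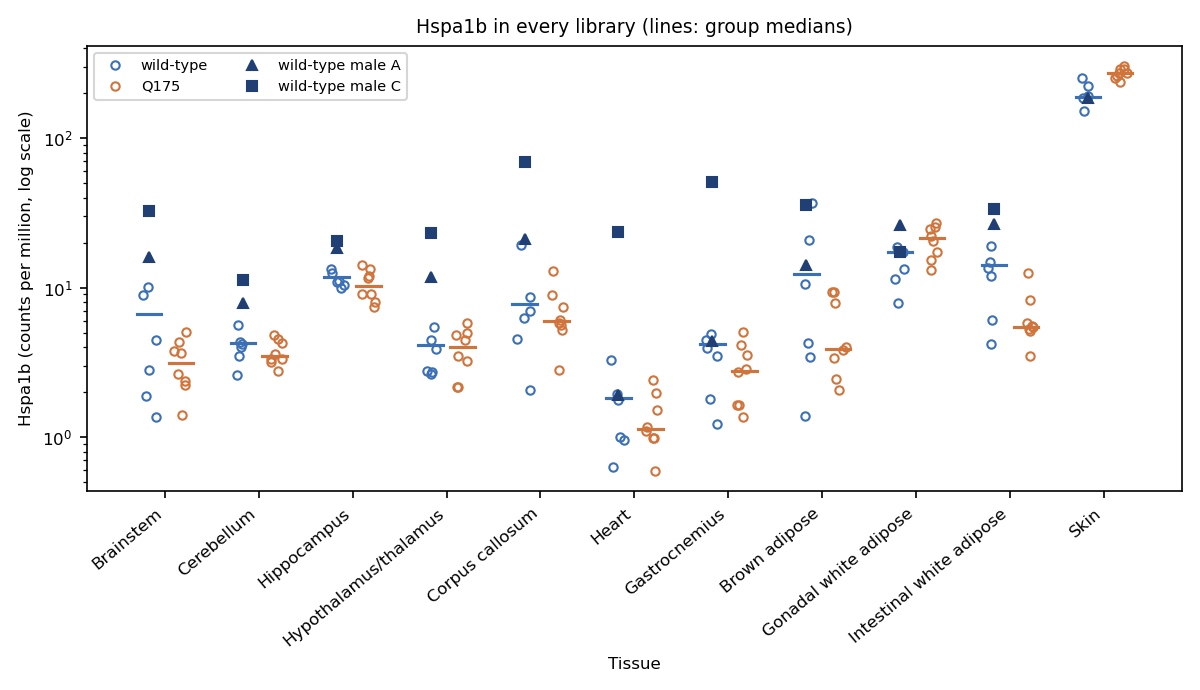
Hspa1b in CPM (log scale) in every library by tissue, wild type in blue and Q175 in orange, with lines at the group medians; filled symbols are wild-type males A and C. Male C is the highest library in 8 of its 10 tissues.

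Other genes of the pathway were read in the same 2 animals. Both males were on top in 9 of 45 further chaperones and co-chaperones, among them Bag2 and Hyou1, in 4 of 14 subunits of the chaperonin CCT and prefoldin, in 9 of 25 genes of the unfolded protein response, among them Calr and Pdia4, and in 4 of 12 further factors and targets of Hsf1, among them Serpinh1. Over all genes the share was 3.15%. These lists overlap, so their counts are not separate. Dnajb11 and Hyou1 count both among the chaperones and in the unfolded protein response. Cacybp and Ptges3 count both among the chaperones and among the targets of Hsf1. The 2 males were on top in 0 of 8 immediate early genes, whose median deviation was +0.34 in male A and +0.12 in male C. In 12 temperature and clock genes the medians were -0.11 and +0.02, both males were on top in 0 and both lowest in 1, Cirbp. It and Rbm3 are named after their values were seen. Cirbp, an RNA-binding protein induced by mild cold, was lowest of the 16 animals in male A (-0.46) and next lowest in male C (-0.29). Rbm3, a second cold-induced protein, was lowest in male A (-0.31) and ranked 14 of 16 in male C (-0.16). What set these animals apart was not tested. Because both are wild type, the genotype comparisons are given with and without them. They were chosen for high values of the members, so leaving them out lowers the wild-type means of those genes by construction, and a turn towards higher values in Q175 then tests nothing.

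Levels differed widely between tissues. Levels of different genes are compared in the deposited FPKM (fragments per kilobase of transcript, scaled to library size), as wild-type means ± SD (n = 8 unless stated). The constitutive Hsp70 gene Hspa8 and the constitutive Hsp90 gene Hsp90ab1 were the 2 most abundant members in 8 of the 11 tissues. Hspa8 ranged from 399 ± 111 FPKM in gonadal white adipose tissue (n = 7) to 989 ± 101 FPKM in brainstem, with neighbouring tissues overlapping throughout that order. Cryab led in heart (687 ± 47.7 FPKM) and Hspb1 in skin (966 ± 522 FPKM, n = 6). The steadiest member was Dnajb9, a J protein of the endoplasmic reticulum, with a highest tissue mean 1.59 times its lowest. The most variable was Hspb7, a small heat shock protein of striated muscle, at 469.7 ± 54.2 FPKM in heart and 0.0386 FPKM in hippocampus.

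The 5 brain tissues were compared with the 6 peripheral ones in wild-type mice, with the animal as a term (edgeR quasi-likelihood test, adjusted over 19928 genes). Of the 41 members 38 differed, 10 higher and 28 lower in brain, where 89% of all genes differed (42.8% higher and 46.2% lower). The largest log2 differences above 0 were those of Hspa4l, an Hsp110 protein (+2.47), Hspa12a (+1.93), Hsp90aa1 (+1.90), Hspa2 (+1.34) and Hsph1 (+1.24). Hspa4l was 52.2 ± 4.44 FPKM in cerebellum and 1.64 ± 0.491 FPKM in gastrocnemius, and each of its brain means exceeded each peripheral mean. Hsp90aa1 ran from 296 to 489 FPKM in the brain tissues and from 22.1 to 138 FPKM elsewhere, without overlap of libraries. The lowest in brain were small heat shock proteins, Hspb7 (-9.72), Hspb2 (-4.87), Hspb6 (-4.64), Hspb1 (-4.54) and Hspb8 (-3.99). Cryab, also lower in brain (-1.54), reached 416 ± 123 FPKM in corpus callosum, a white-matter tract, and 47.2 ± 10.01 FPKM in hippocampus. The inducible Hspa1b was 69.9 ± 13.9 FPKM in skin (n = 6), above every library of the other tissues, where its means were 1.54 to 6.05 FPKM. Hspa8, Hspa4 and Dnajb1 did not pass the test. These counts rest on the TMM scaling between libraries. On the deposited values, as log2(FPKM + 1) in limma, 38 of 41 members differed, 24 higher and 14 lower in brain, where 91.2% of all genes differed (55.4% higher and 35.8% lower). The median of all genes was -0.11 in the fit on counts and +0.20 on FPKM. The sign turned in 14 members, among them Hspa8 (+0.60 on FPKM), Hsp90ab1 (+0.39), Dnajb6 (+0.75) and Hsf1 (+0.39), while the 10 named as highest or lowest kept their direction.

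**Figure D3:**
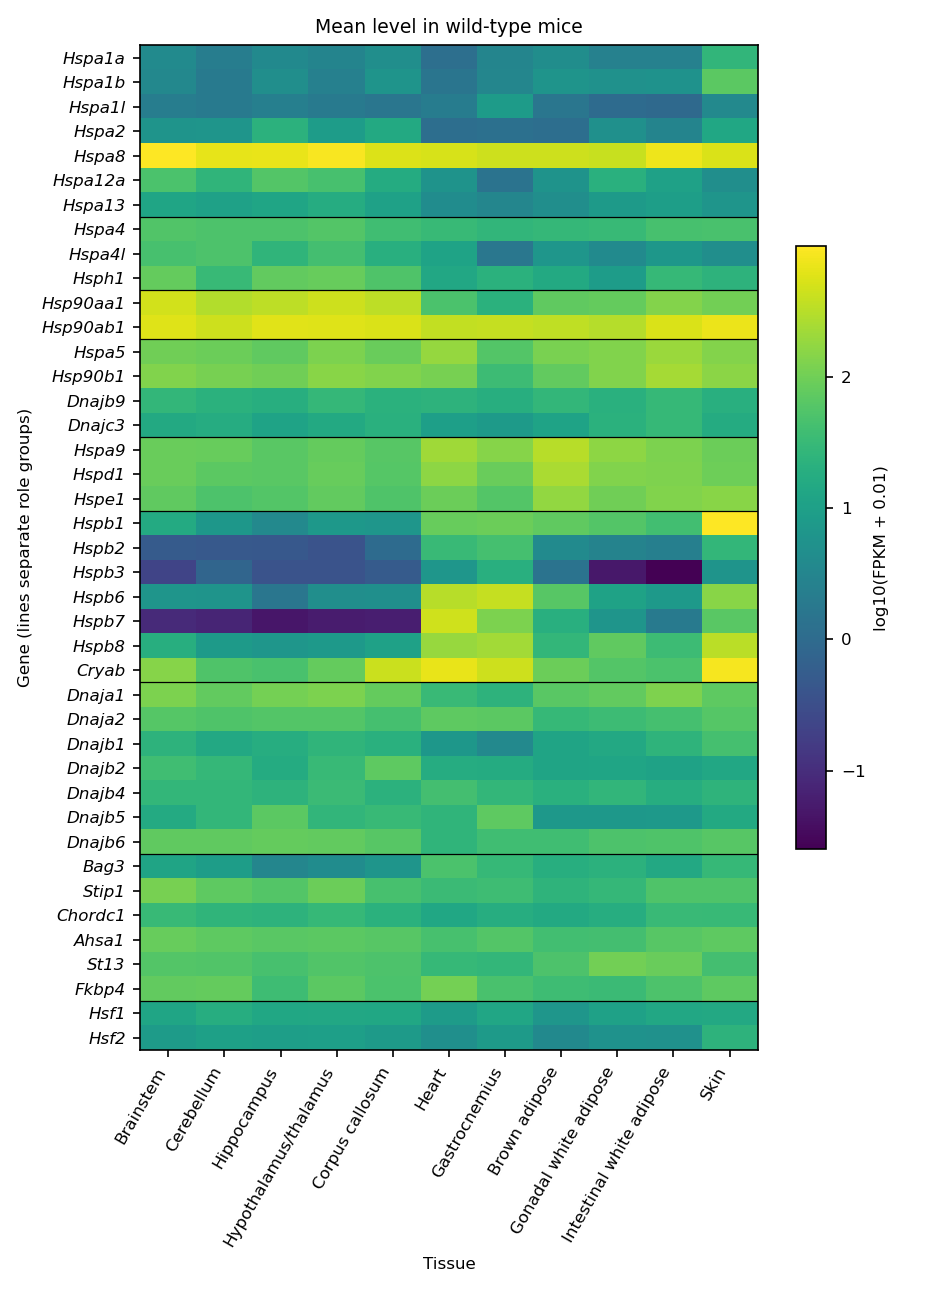
Mean FPKM of the 41 members in wild-type mice on a log10 colour scale, with tissues in columns and genes by role in rows. Hspa8 and Hsp90ab1 are high in all 11 tissues, and Hspb7 runs from 0.0386 FPKM in hippocampus to 469.7 FPKM in heart.

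Striated muscle (heart and gastrocnemius) was set against the other 9 tissues in the same way. Of the 41 members 39 differed, 29 higher and 10 lower in muscle, where 79.2% of all genes differed (37.5% higher and 41.7% lower). The 5 highest were small heat shock proteins, Hspb7 (+9.80), Hspb6 (+6.21), Hspb3 (+6.13), Hspb2 (+5.85) and Hspb8 (+4.28). Hspb6 was 391 ± 121 FPKM in gastrocnemius and 320.5 ± 37.2 FPKM in heart, which overlapped. Bag3, which binds Hspb8, was 49.7 ± 8.03 FPKM in heart and 3.24 ± 0.454 FPKM in hippocampus. The 5 lowest in muscle were Hspa12a (-1.67), Hsp90aa1 (-1.60), Hspa2 (-1.38), Hspa4l (-1.02) and Dnajb1 (-0.95). The split again depended on the unit. On log2(FPKM + 1), 41 of 41 members differed, 15 higher and 26 lower in muscle, where 91.6% of all genes differed (13% higher and 78.6% lower). The median of all genes was -0.19 in the fit on counts and -0.57 on FPKM. The sign turned in 16 members, all above 0 on counts and below 0 on FPKM. Among them were Hspa8 (+0.76 and -0.37), Hsp90ab1 (+0.70 and -0.40), Hspa4 (+0.52 and -0.59), Hspa5 (+0.96 and -0.14), Chordc1 (+0.46 and -0.61) and Dnajb6 (+0.49 and -0.99). The small heat shock proteins and Bag3 were higher in muscle, and the 5 lowest genes lower, on both. The mitochondrial chaperones Hspa9 (mortalin), Hspd1 (Hsp60) and Hspe1 (Hsp10) were highest in brown adipose tissue, at 319 ± 36.8, 256 ± 44.6 and 177 ± 57.5 FPKM. Hspa9 and Hspd1 there did not overlap heart, the next tissue, while Hspe1 overlapped skin.

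Q175 and wild-type mice were compared tissue by tissue with sex as a term (edgeR quasi-likelihood test, Benjamini-Hochberg adjustment over all genes tested, called at an adjusted p under 0.05). Below the low-count filter, and so not tested, were Hspb7 in the 5 brain tissues, Hspb3 in the 3 adipose tissues and brainstem, and Hspb2 in cerebellum and in hypothalamus with thalamus. Members were called in 4 of 11 tissues. Values for each group are the lowest, the median and the highest library in CPM, and changes are log2 fold changes of Q175 against wild type ± SE.

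In cerebellum 7 of 39 members were called, 4 higher and 3 lower, where 16.1% of all genes were called (7.94% higher and 8.11% lower). Hspa2, a constitutive Hsp70 best known from sperm, was 17.8, 19.3 and 21.3 CPM in Q175 and 15.5, 16.2 and 17.2 CPM in wild type, a change of +0.26 ± 0.039 (adjusted p = 9.28e-05). Its groups did not overlap, as for 3.68% of all genes. Hspa12a, a distant Hsp70 relative, was 116, 130.0 and 141 CPM in Q175 and 138, 147 and 156 CPM in wild type, a change of -0.18 ± 0.030 (adjusted p = 0.000236). Its groups crossed in a single pair, Q175 male C above wild-type male B. Cryab was 43.02, 51.9 and 58.0 CPM in Q175 and 51.4, 63.5 and 87.0 CPM in wild type, a change of -0.31 ± 0.091, and Hspb6 changed by -0.19 ± 0.055. The J proteins Dnajb5, Dnaja2 and Dnajb6, the last a suppressor of polyglutamine aggregation, rose by +0.12, +0.09 and +0.09. Without Q175 male A, 4 members were called, and no share of all genes is given for that fit. Summed oligodendrocyte markers were 2923 to 4061 CPM in Q175 libraries against 4315 to 5217 CPM in wild type, and their part in these changes was not tested. In the other 10 tissues no member had groups apart, where the share of all genes was 0.164% in brown, 1.72% in gonadal and 0.024% in intestinal adipose tissue, 1.25% in brainstem, 1.52% in hippocampus, 1.72% in skin, 0.0481% in heart, 0.0213% in gastrocnemius, 0.115% in corpus callosum and 0.317% in hypothalamus with thalamus.

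Without wild-type males A and C, 13 of 39 members were called in cerebellum, 11 higher and 2 lower, where 17.2% of all genes were called. Of the 7 called with all libraries, 6 were called again, and 7 were added, all higher in Q175. The 2 males were chosen for high values of the members, so added calls in this direction, here and in the tissues below, test nothing. The added members were Hspa8 (+0.24 ± 0.045), Chordc1 (+0.20 ± 0.041), the Hsp90 activator Ahsa1 (+0.15), St13 (+0.14), Hsf1 (+0.11), Hspa4 (+0.09) and Stip1 (+0.09). Cryab was not called (-0.20, adjusted p = 0.0538). Hsph1 shows the weight of the 2 animals: it was 158.5 CPM in male A and 172.7 CPM in male C, 90.0 to 115 CPM in the other 6 wild-type libraries and 99.0 to 131 CPM in the 8 Q175 libraries.

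In gonadal white adipose tissue 7 of 40 members were called, 1 higher and 6 lower, where 32.1% of all genes were called (15.4% higher and 16.7% lower). The 3 mitochondrial chaperones all fell. Hspe1 was 47.4, 63.1 and 84.5 CPM in Q175 and 62.1, 80.9 and 108 CPM in wild type (n = 7), a change of -0.46 ± 0.068 (adjusted p = 0.000653). Its neighbour Hspd1 was 224, 274 and 319.6 CPM against 280.4, 347 and 424 CPM, a change of -0.36 ± 0.070 (adjusted p = 0.00242). Hspa9 was 365, 399 and 498 CPM against 464, 486 and 670.0 CPM, a change of -0.38 ± 0.071 (adjusted p = 0.00217). In all 3 the medians were lower in Q175 and the groups overlapped. The factor gene Hsf2 (-0.28), Dnajb6 (-0.24) and Chordc1 (-0.21) also fell, and Hspa13, a microsomal Hsp70, rose (+0.21). Without males A and C, 9 of 40 members were called (all genes 30.8%). Chordc1 was no longer among them (adjusted p = 0.0533), and Hspa5 (+0.27), Dnajc3 (+0.21) and Hspa1b (+0.65) were added as higher. With the lane code as a further term, 0 of 40 members were called. The lane code is the L number in a library's column name, and reading it as a lane is an inference. Libraries whose name lacks an index part were coded apart. No share of all genes is given here for this fit, so the 0 cannot be set against all genes. Lane codes were spread unevenly over the genotypes here, so this fit cannot tell the lane code from genotype. White adipocyte markers ran over 18260 to 31919 CPM among Q175 and 26066 to 32024 CPM among wild-type libraries. Markers of microglia, several of which macrophages share, ran over 296 to 338 and 118 to 298 CPM. The part of either in these changes was not tested.

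Further genes of protein folding were read from 4 lists, which share some genes, Cacybp and Ptges3 among them, so their counts are not separate. In gonadal white adipose tissue, where 32.1% of all genes were called (16.7% lower), 25 of 47 other chaperones and co-chaperones were called, 21 of them lower, led by Bag1, an exchange factor of Hsp70 (-0.56 ± 0.066), and Sgta (-0.49 ± 0.059). Of the chaperonin CCT and prefoldin 8 of 14 were called, all lower, with Cct2 at -0.22 and Pfdn2 at -0.39. Of the unfolded protein response 7 of 26 were called, 5 higher, with the stress kinase gene Eif2ak3 at +0.36 and the ubiquitin ligase gene Syvn1 at -0.30. Of factors and further targets of Hsf1 3 of 13 were called, all lower, with Cacybp at -0.37 and Hsbp1 at -0.31. Cerebellum (all genes 16.1%) had 3 of 47 other chaperones called (Tomm34 -0.12, Sugt1 +0.11), 3 of 13 factors and targets (among them Hsf4 -0.31) and 2 of 26 genes of the unfolded protein response (Sil1 -0.16, Ppp1r15a -0.19). Single genes were called elsewhere: Dnajc27 in brown adipose tissue (-0.71, 1 of 46 other chaperones, all genes 5.41%), Hsf4 in skin (-0.80, 1 of 14 factors and targets, all genes 6.53%) and Atf6 in hippocampus (-0.32, 1 of 26 genes of the unfolded protein response, all genes 4.56%). Without males A and C, the count in gonadal white adipose tissue was 13 of 26 for the unfolded protein response, 11 higher (all genes 30.8%). In cerebellum it was 7 of 47 for other chaperones, 6 of 14 for CCT and prefoldin, where 0 were called with all libraries, and 4 of 26 for the unfolded protein response (all genes 17.2%).

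In brown adipose tissue 5 of 40 members were called, all lower, where 5.41% of all genes were called (4.85% lower). They were 4 small heat shock proteins and the J protein Dnajb5. Hspb6 was 6.47, 10.8 and 17.2 CPM in Q175 and 7.97, 73.1 and 196 CPM in wild type, a change of -2.78 ± 0.54 (adjusted p = 0.0140). Hspb7 was 0.277, 4.25 and 7.34 CPM against 0.226, 32.1 and 195 CPM, a change of -3.70 ± 0.94. Cryab was 8.19, 17.7 and 37.3 CPM against 5.56, 71.4 and 266 CPM, a change of -2.31 ± 0.59. Wild-type libraries spread far more widely than Q175 libraries in each, with female G within the Q175 range or below it. Hspb2 changed by -2.41 ± 0.51 and Dnajb5 by -1.03 ± 0.24. Summed skeletal and cardiac muscle markers were 5.45 to 398 CPM in Q175, 11.7 CPM in wild-type female G and 510.1 to 8958 CPM in the other 7 wild-type libraries, with males A and C highest. With the lane code as a further term, 0 of 40 members were called (all genes 1.51%). With the muscle markers as a term, 0 of 40 were also called and the change of Hspb7 was +0.48. No share of all genes is given here for the fit with muscle markers. Lane codes were spread unevenly over the genotypes, and the muscle markers nearly separated them. Neither fit can therefore tell its added term from genotype. Without males A and C, 2 of 40 were called (all genes 4.07%), Hspb6 at -2.20 ± 0.54 and Hspa9 at +0.29 ± 0.074. Leaving out single libraries lowered the count to 2 (Q175 male D or wild-type female F) or to 3 (Q175 males A or B, Q175 females E, F or G, wild-type female E or wild-type male C). Shares of all genes are not given for these single-library fits, so the lower counts cannot be set against all genes.

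**Figure D4:**
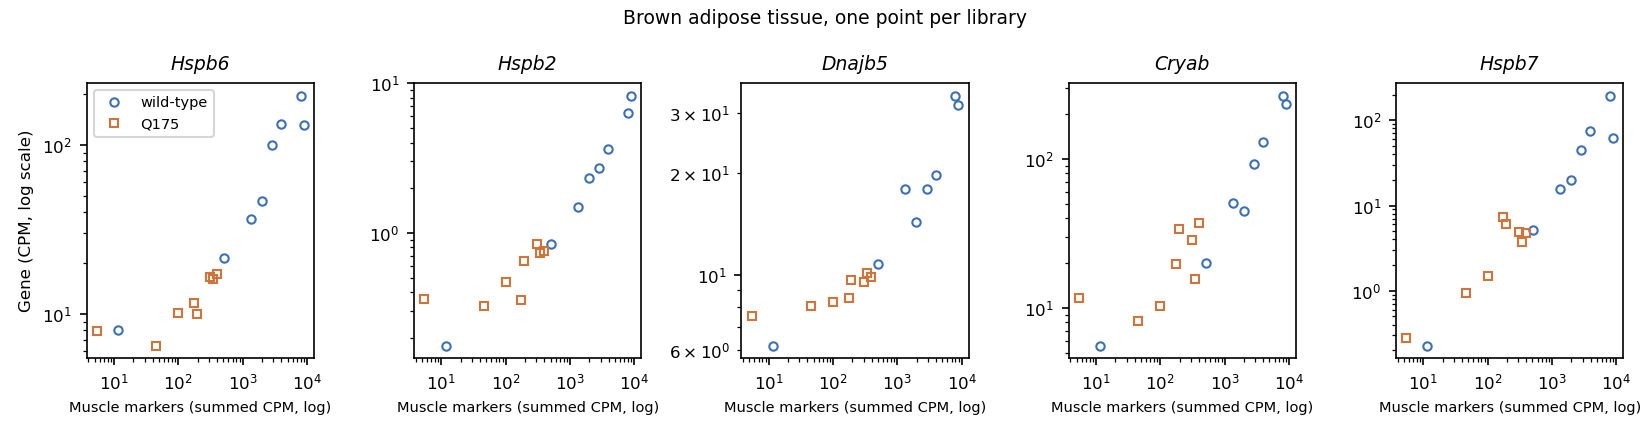
Level of the 5 called members in brown adipose tissue (CPM, log scale) against the summed CPM of muscle markers (log scale), 1 point per library, wild type in blue and Q175 in orange. In each panel 7 of the 8 wild-type points lie to the right of all Q175 points, and wild-type female G lies within the Q175 range of markers.

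In skin 1 of 41 members was called, higher in Q175, where 6.53% of all genes were called (2.5% higher). Hspa1b was 239, 272 and 305 CPM in Q175 and 151, 189 and 251 CPM in wild type (n = 6), a change of +0.47 ± 0.082 (adjusted p = 0.0135). Of the wild-type libraries only that of female E reached the Q175 range. Its near copy Hspa1a changed by +0.24 ± 0.097 (adjusted p = 0.1302). Summed epidermis markers were 31552 to 40935 CPM for Q175, without overlap with the wild-type range given above, and their part in this result was not tested. Without male A, the only one of the pair with a skin library here, 2 of 41 were called (all genes 4.92%), Hspa1b at +0.48 and Dnajb1, a J protein partner of inducible Hsp70, at +0.29 ± 0.074. Without wild-type male B, 3 were called, and no share of all genes is given for that fit. DESeq2 called 5 members in skin (all genes 16.5%), Hspa1b among them.

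In the other 7 tissues 0 members were called by edgeR. In intestinal white adipose tissue 0% of all genes were called, and 3 of 40 members had an unadjusted p under 0.05 (all genes 7.77%), with Hspa1b at -1.29 ± 0.36 and Hspa1a at -1.22 ± 0.38. In brainstem (3.07% called) the count was 3 of 39 (all genes 14.2%), with Hspa1b at -1.39 ± 0.59 and Hspa1a at -0.75 ± 0.33. In hippocampus (4.56% called) it was 6 of 40 (all genes 21.7%), with Hspb6 at +0.36 ± 0.11 and Dnajb5 at -0.21 ± 0.081. In hypothalamus with thalamus (0.574% called) it was 5 of 39 (all genes 13.7%), with Hsf1 at +0.19 ± 0.057 and Hspa12a at -0.28 ± 0.094. In corpus callosum (0.0544% called) it was 5 of 40 (all genes 19%), with Hspa2 at +0.30 ± 0.088 and Dnajb5 at -0.47 ± 0.17. In gastrocnemius (0.0213% called) it was 2 of 41 (all genes 6.3%), with Dnajb1 at -0.55 ± 0.21 and Hspb8 at -0.36 ± 0.14. In heart (0.0549% called) it was 1 of 41 (all genes 7.82%), Hspb8 at -0.09 ± 0.038. Hspb6, at -0.09 ± 0.051, had the next smallest p there and was not below 0.05. In each of the 7 the share of members with an unadjusted p under 0.05 was below that of all genes. DESeq2 called 1 member in hippocampus and 0 in the other 6, and its shares of all genes are not given for these tissues. Without males A and C, edgeR again called 0 members in these tissues, where the shares of all genes were 0%, 2.25%, 2.66%, 0.492%, 0%, 0.00702% and 0.0271% in the order above.

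**Figure D5:**
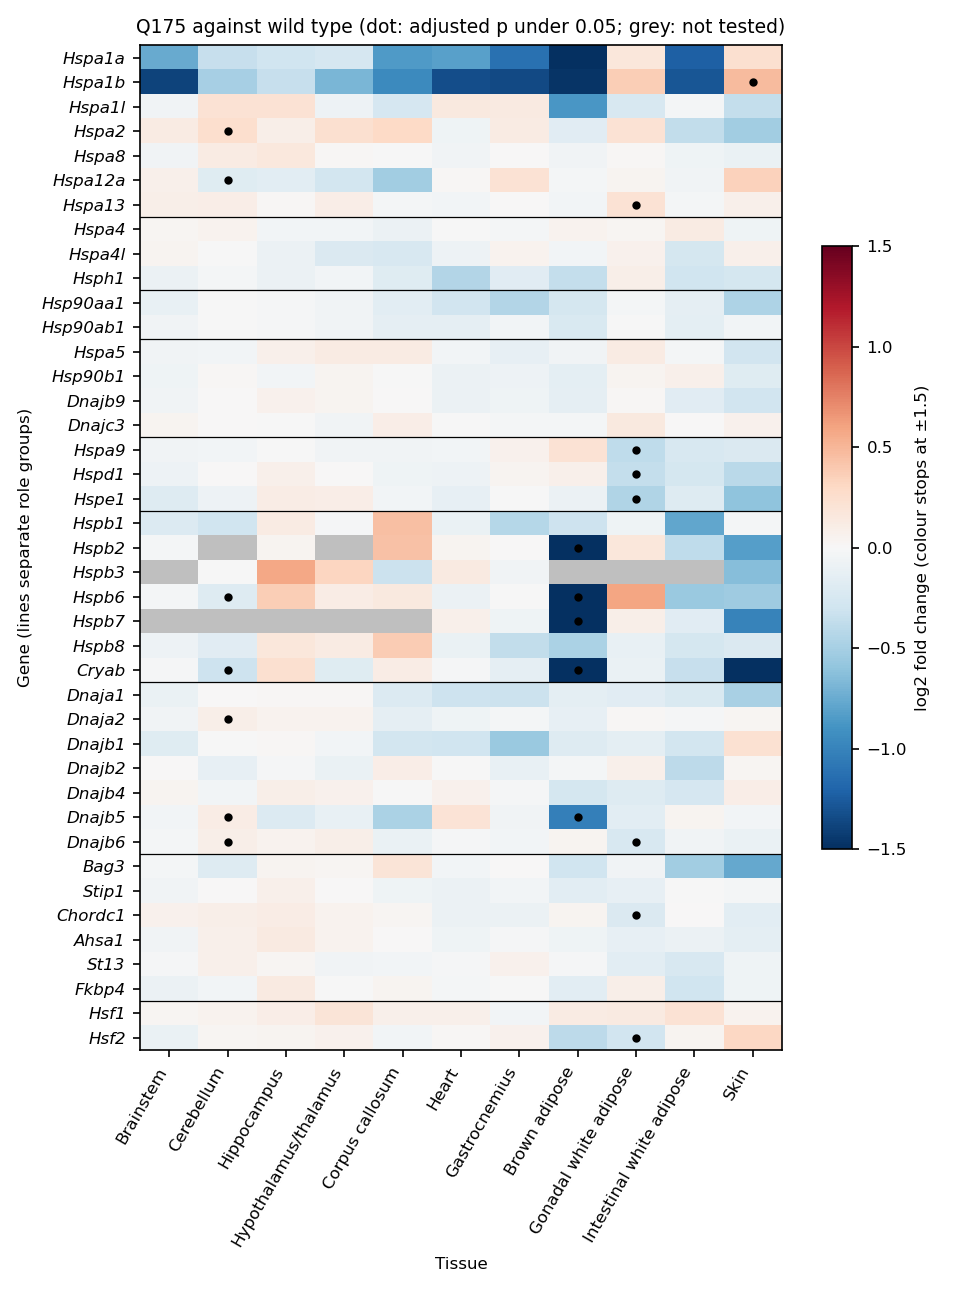
Log2 fold change of Q175 against wild type for the 41 members (rows, by role) in 11 tissues (columns), with black dots at an adjusted p under 0.05 and grey cells not tested. Hspa1a and Hspa1b lie below 0 in 9 of 11 tissues, none of them with a dot, and Hspa1b has a dot above 0 in skin.

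The inducible pair Hspa1a and Hspa1b had a change below 0 in 9 of 11 tissues and was called in none of these. In heart, Hspa1b was 0.591, 1.13 and 2.40 CPM in Q175 and 0.632, 1.84 and 23.7 CPM in wild type, a change of -1.33 ± 0.76, and without males A and C it was -0.25 ± 0.38. The same step was from -1.35 to -0.20 in gastrocnemius, from -0.95 to -0.21 in corpus callosum, from -1.39 to -0.63 in brainstem and from -0.68 to +0.09 in hypothalamus with thalamus. In cerebellum it was from -0.50 to -0.11, in hippocampus from -0.34 to -0.07, in brown adipose tissue from -1.47 to -1.31 and in intestinal adipose tissue from -1.29 to -0.89. Without these males the change was below 0 in 8 of 11 tissues for Hspa1b and in 7 for Hspa1a. Animal means over the 9 shared tissues were also fitted for all genes with limma. With all 16 animals 0 of 38 members were called (1.39% of all genes), with 4 at an unadjusted p under 0.05 (all genes 13.5%), and without males A and C also 0 of 38 (0.685% of all genes), with 6 at an unadjusted p under 0.05 (all genes 15.6%).

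A genotype change that differed between tissues was tested in 1 model of all libraries with the animal as a term (edgeR). It was found in 16 of 41 members, where 42.5% of all genes passed, and the smallest p-values were those of Hspb6, Dnajb5, Hspb3, Hspb7 and Hspb2. Without males A and C it was found in 16 members (all genes 34.2%). A genotype change that differed between the sexes was called in 0 members in any tissue (edgeR), where 0.231% of all genes passed in gonadal white adipose tissue and 0% in the other 10. At an unadjusted p under 0.05 there were 17 of 40 members in hippocampus (all genes 21.7%), 12 of 39 in hypothalamus with thalamus (all genes 7.34%) and 11 of 41 in skin (all genes 13.6%). Without males A and C these were 7 of 40 (14.4%), 1 of 40 (4.18%) and 6 of 41 (6.27%), and 0 members were called in any tissue. DESeq2 called St13 in gonadal white adipose tissue (all genes 3.28%) and Cryab and Hspb7 in skin (all genes 1.87%) for this term.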

How the data were processed

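The authors deposited 2 tables over all libraries: estimated counts per Ensembl gene, of which 16.6% were on average not whole, and FPKM values. Base calling used CASAVA 1.8.2, per the submitters' processing notes, while for the aligner, the annotation and the strand setting the sources used here give nothing. Symbols came from a reference table that matched 36639 of 38561 identifiers. The members and gene lists were chosen with earlier results of these data known.

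Estimated counts were rounded, filtered with filterByExpr, scaled by TMM and tested per tissue with edgeR 4.0.16 (quasi-likelihood F-test, genotype with sex as covariate, R 4.3.3), adjusted by Benjamini-Hochberg over all genes tested and called at an adjusted p under 0.05. SE is the log2 fold change divided by the square root of F. CPM values were computed from the TMM-scaled counts, and marker sums from plain totals. Tissue models had the animal as a fixed term. Animal means were fitted with limma 3.58.1. Scripts were tested on simulated data. Each animal gave 1 library per tissue, so replicates are separate mice.

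Every called member is named, with the 2 smallest p-values where none was called, the 5 highest and 5 lowest of each tissue contrast, and the 2 smallest p-values per list and tissue. Alternatives were RLE scaling, no filter, DESeq2 1.42.0, limma on log2(FPKM + 1), no sex term, a replicate block, a lane term, a length correction, voom, a muscle term and leaving out each library. Those leaving out males A and C or libraries with a strong length trend, the animal means, and the tissue contrasts on log2(FPKM + 1) were added after seeing the data.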

Additional observations from a re-analysis of the deposited data

Results flagged for a closer look

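In 4 groups of 8 libraries or fewer, the highest or lowest value of a called or named member lay far from the rest, by the gap to its neighbour relative to the whole range. Chance alone gives such a gap in about 1 of 20 groups. Hspa1b in brainstem was 32.7 CPM in wild-type male C, and Hspb7 in brown adipose tissue was 195 CPM in the same animal. Cryab in cerebellum was 43.02 CPM in Q175 male A, below its group. Hspb8 in gastrocnemius was 481 CPM in Q175 male D, above its group. Over all 880 member groups examined in this way, wild-type male A was the outlying library in 24 and male C in 18.

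The genotype change differed between tissues for 16 of 41 members, where 42.5% of all genes passed. The test was the edgeR test of the tissue by genotype terms (10 degrees of freedom). The adjusted p was 6.60e-12 for Hspb6, 7.32e-08 for Dnajb5, 3.44e-07 for Hspb3, 5.75e-07 for Hspb7 and 3.49e-06 for Hspb2. It was 2.30e-05 for Hsf2, 0.000577 for Cryab, 0.000869 for Dnajb1, 0.000973 for Bag3, 0.00126 for Hspa9 and 0.00236 for Hspd1. The remaining values were 0.00847 for Hspa1b, 0.00914 for Hspa1l, 0.0120 for Hspa2, 0.0132 for Hspe1 and 0.0244 for Hspa1a.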

How the results depend on the processing

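Counts of called members moved by over 1.5 times as follows. Shares of all genes are given above for some of these fits only. Where none is given, a moved count cannot be set against all genes and is no result about the members. In brown adipose tissue the count of 5 became 3 with no filter, 2 without males A and C, and 0 with the replicate block, the lane code or the muscle term, under which Hspb7 turned to +0.48. In gonadal white adipose tissue 7 became 4 with no sex term, 4 with the replicate block and 0 with the lane code. Cerebellum went from 7 to 13 without males A and C, hippocampus from 0 to 1 with DESeq2, and hypothalamus with thalamus from 0 to 1 with the length trend removed. Skin went from 1 to 0 with the replicate block, 5 with DESeq2 and 2 without males A and C. The sex term went from 0 to 3 with DESeq2, and the tissue term from 16 to 10 with voom. The cause was not tested. Leaving out each library in turn gave 2 to 7 in brown adipose tissue (2 without wild-type female F or Q175 male D, and 3 without any of 7 others), 6 to 8 in gonadal white adipose tissue, 4 to 8 in cerebellum (4 without Q175 male A), 0 to 1 in hippocampus (1 without Q175 male B), 1 to 3 in skin (2 without wild-type male A, 3 without male B) and 0 elsewhere. Same-numbered libraries did not deviate together in every pair of any tissue (median correlations -0.13 to 0.30), so the numbers pair nothing and the block is an alternative only.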
